A study of Sus scrofa with 2 samples.

Results

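The microRNAs miR-23, miR-24 and miR-27 were followed on arrays of pig anterior pituitary. The set was chosen by name, as every porcine miRNA probe (prefix ssc-miR-) numbered 23, 24 or 27 with any letter or arm suffix, and held 7 of the 355 probes on the array. They were ssc-miR-23a, ssc-miR-23b, ssc-miR-24, ssc-miR-24*, ssc-miR-27a, ssc-miR-27b and ssc-miR-27b*, where the star marks the strand of the hairpin that was named as the minor one.

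The study compared a small and a large pig breed. RNA from the anterior pituitary of 3 female Bama minipigs, a small Chinese breed, and of 3 female Landrace pigs, a large lean breed, all piglets 20 days of age, was combined into 1 pool per breed and hybridized to 1 custom array per pool. The labels give no treatment, and breed, body weight, pool and array differ together and cannot be told apart. The array carried 255 probes for known porcine miRNAs and 100 added probes with the prefix Y-, and the signals summed to 695596 for Bama minipigs and 671754 for Landrace pigs.

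A miRNA is a short RNA cut from a hairpin precursor. It guides the silencing complex to messenger RNAs that pair with its seed, the bases 2 to 8 from its 5′ end, and lowers their translation and stability. In mammals the genes of miR-23, miR-27 and miR-24 lie side by side in 2 paralogous clusters, each transcribed as a common primary RNA. The clusters are active in most tissues and are studied above all in blood vessels, fat cells and blood cell formation.

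The labelled tissue was checked against miRNAs known from endocrine and epithelial cells of the anterior pituitary. All 6 probes of that list gave a signal of 100 or more on both arrays, summing to 98550.3 in Bama minipigs against 105517 in Landrace pigs. The list was led by ssc-miR-7, with 35031 and 42831. Its largest log2 ratio of Bama minipigs over Landrace pigs was 0.49, at Y-75 (listed as miR-141, 2360.4 and 1685), and the median of the list was -0.086. Under the other scalings that median was -0.20 (median), -0.27 (75th percentile), -0.14 (summed signal), -0.14 (loess) and 0 (quantile normalization). Quantile normalization gives 0 wherever a probe holds the same position on both arrays, as ssc-miR-7 and Y-90 did. The liver marker ssc-miR-122 gave only 40.3 and 6.56.

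In both breeds the main strands of the clusters gave strong signals, and the largest difference between the breeds among them was 1.19-fold. With 1 array per breed no test was possible, how far pigs of a breed differ cannot be estimated, and the number of arrays limits the precision of every value that follows. The RNA came from whole tissue, in which fewer cells of a type and less RNA per cell cannot be told apart.

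The miR-23 pair gave the highest signals of the set. The signal of ssc-miR-23a, a miRNA known to repress glutaminase, was 9991 in Bama minipigs against 10053 in Landrace pigs, position 21 of 355 on each array. Its log2 ratio was -0.0090, and it was -0.12 when scaled to the median, -0.20 to the 75th percentile, -0.059 to the summed signal, -0.064 by loess and 0 by quantiles. The last value follows from its equal position on both arrays. Without further scaling, only 1 of the 98 probes with a signal of 1000 or more on both arrays had a smaller ratio in size. Its paralog ssc-miR-23b gave 9959 in Bama minipigs against 10582 in Landrace pigs, positions 22 and 18. The log2 ratio was -0.088, or 1.06-fold higher in Landrace pigs.

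The miR-27 pair, known for restraining the formation of fat cells through PPARG, had slightly higher signals in Bama minipigs. For ssc-miR-27a it was 5108 in Bama minipigs against 4870.2 in Landrace pigs, positions 52 and 47. Its log2 ratio was 0.069, a 1.05-fold difference. For ssc-miR-27b the signals were 6343 and 6162, positions 34 and 35, with a log2 ratio of 0.042 (1.03-fold). Neither direction held under all scalings of the arrays: ssc-miR-27a was under 0 once scaled to the 75th percentile (-0.12), to the median (-0.044) or by quantiles (-0.21), and ssc-miR-27b once scaled to the median (-0.071), the 75th percentile (-0.15) or the summed signal (-0.0086), or by loess (-0.019).

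The member with the largest ratio in size was ssc-miR-24, which in other tissues is known to repress cell cycle genes such as MYC and E2F2. Its signal was 5908 in Bama minipigs against 7042 in Landrace pigs, positions 38 and 30. It was thus 1.19-fold higher in Landrace pigs, with a log2 ratio of -0.25. The ratio was below 0 under each of the 5 other scalings and with the offset, from -0.25 with an offset of 50 to -0.44 after scaling to the 75th percentile, as was that of ssc-miR-23b. Even so, 54 of the 98 probes with 1000 or more on both arrays had a smaller ratio in size and 19 had a lower one. The ratio of ssc-miR-24 thus lay inside the extremes of these probes (-1.04 and 1.83) but below their interquartile range (-0.16 to 0.19).

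The order of these probes by signal on each array describes the signals and not molecule numbers, since each probe binds its target with a strength of its own. In Bama minipigs it ran ssc-miR-23a, ssc-miR-23b, ssc-miR-27b, ssc-miR-24 and ssc-miR-27a. In Landrace pigs ssc-miR-23b came before ssc-miR-23a and ssc-miR-24 before ssc-miR-27b, while ssc-miR-27a was again the last. With no replicate arrays it cannot be said which neighbours in this order differ.

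**Figure D1:**
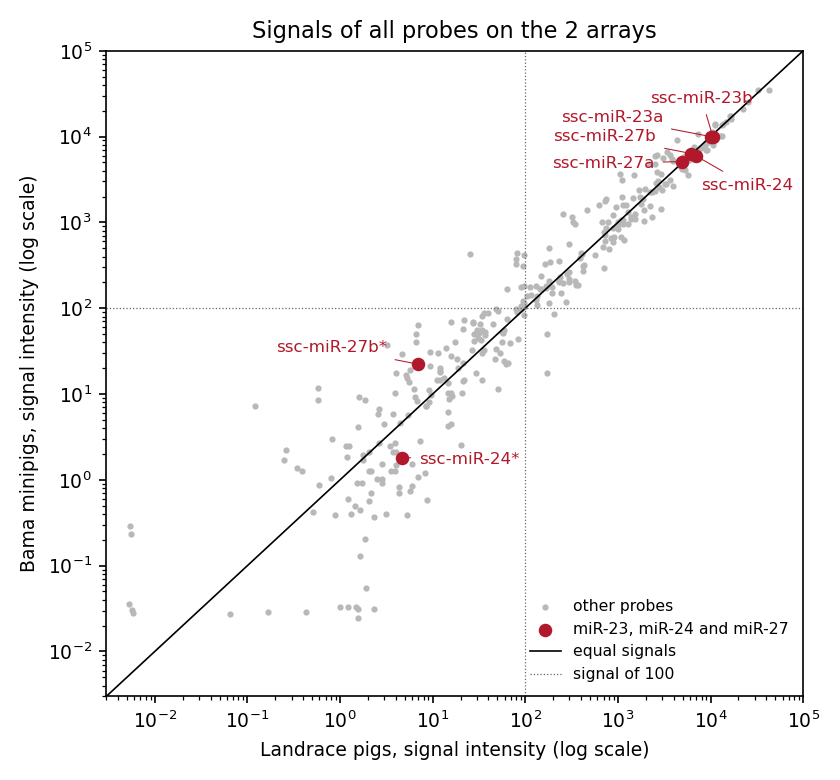
Signal intensity of each of the 355 probes on the Landrace array (x axis) and the Bama minipig array (y axis), both on log scales, with the 7 members in red, the line of equal signals and dotted lines at a signal of 100. The 5 main strands sit close to the line between 4870.2 and 10582, and the 2 star strands lie below 100 on both arrays.

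Across the 5 main strands the log2 ratios ran from -0.25 to 0.069 with a median of -0.0090. For comparison, the 98 probes with 1000 or more on both arrays had a median of 0.0097, an interquartile range from -0.16 to 0.19 and extremes of -1.04 and 1.83. Of these 98 probes, 43 lay within the range of the members, which includes the 5 members themselves. The median size of the log2 ratio was 0.069 for the members, 0.18 for the 98 probes and 0.29 for the 169 probes with 100 or more on both arrays.

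None of the members (0 of 5) differed by 2-fold or more, where 12.4% of the 169 probes with 100 or more on both arrays and 9.18% of the 98 brighter ones did. These are rules of size only, and against such shares a count of 0 of 5 is no result about the members. Among the 169 probes, 17 were past 2-fold higher and 4 lower in Bama minipigs. The share of higher ones among them was 81.0% and moved to 68.2% (15 higher, 7 lower) after median scaling, 63.6% (14 and 8) after scaling to the 75th percentile and 66.7% (14 and 7) after quantile normalization. It was 76.2% (16 and 5) with the summed signal, 72.7% (16 and 6) after loess and 88.9% (16 and 2) with the offset of 50.

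Some scalings moved the ratios by more than the size of most member ratios. Median scaling shifted the median of all 169 probes by -0.11 and scaling to the 75th percentile by -0.19. Under both, all 5 main strands had a log2 ratio below 0, from -0.37 to -0.044 and from -0.44 to -0.12. Relative to that shift the members kept the positions they had without it, since both scalings move every probe by the same amount.

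The mature sequences, taken from the study's probe list, show how the members fall into 3 groups by seed. They are written 5′ to 3′ with the seed in capitals.
ssc-miR-23a: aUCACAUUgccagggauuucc
ssc-miR-23b: aUCACAUUgccagggauuacca
ssc-miR-27a: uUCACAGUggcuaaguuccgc
ssc-miR-27b: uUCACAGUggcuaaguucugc
ssc-miR-24: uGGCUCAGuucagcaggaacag

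Counted from the 5′ end, ssc-miR-23a and ssc-miR-23b share a seed and differ by U19A and by an additional 3′ A in ssc-miR-23b, with 20 bases the same. ssc-miR-27a and ssc-miR-27b share a seed and differ by C19U alone, with 20 of 21 bases the same. The seeds of miR-23 and miR-27 share 6 of 7 bases and differ by U7G. The seed of ssc-miR-24 shares 0 of 7 bases, position by position, with that of miR-23 and 0 of 7 with that of miR-27.

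Ratios of the paralogs that share a seed lay close together. The difference in log2 ratio was 0.079 between ssc-miR-23a and ssc-miR-23b and 0.027 between ssc-miR-27a and ssc-miR-27b, the a form being the higher in each pair. A difference of ratios does not depend on any factor applied to a whole array. Quantile normalization, which works on ranks, kept the first difference at 0.097 and turned the second to -0.24. How far each probe also binds the RNA of its near-identical paralog was not tested, so the paralogs may not be separate measurements.

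Other probes on the array whose sequences differ by at most 2 single-base changes served as a description of how far such pairs can part. Among 27 such pairs with 100 or more on both arrays, the median size of the difference in log2 ratio was 0.20. The range was from 0.0028 for ssc-miR-106a and ssc-miR-17-5p to 1.49 for ssc-let-7a and ssc-miR-98. Many of the pairs share a probe, above all those among the let-7 and miR-98 probes, which also gave the largest differences and weigh on the median. A difference smaller than that of the miR-23 pair was seen in 7 of the 27 and a difference smaller than that of the miR-27 pair in 3 of the 27. For the 10 pairs with at most 1 change, as in the miR-27 pair, the median was 0.13. Pairs of probes this alike thus gave unequal ratios in places on these arrays. These positions hold for the signals without further scaling, since after quantile normalization the miR-27 difference of -0.24 is larger in size than the median of 0.20 that the reference pairs have without it. The let-7a and miR-98 pair and the miR-106a and miR-17-5p pair were named after their values were seen.

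By seed, the median log2 ratio was -0.048 for the miR-23 pair and 0.055 for the miR-27 pair, a difference of 0.10. By gene, the RefSeq annotation of the Sscrofa11.1 assembly holds 6 precursor genes of the set in 2 clusters of 3. MIR23A, MIR27A and MIR24-1 neighbour each other outside any other annotated gene, next to MIR181C on one side and ZSWIM4 on the other. MIR24-2, MIR27B and MIR23B neighbour each other inside C10H9orf3.

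Grouped in this way, miR-23a and miR-27a had a median log2 ratio of 0.030, and miR-23b and miR-27b one of -0.023. These medians rest on 2 probes each. After quantile normalization they were -0.10 and -0.032 by cluster, and -0.048 for miR-23 and -0.088 for miR-27 by seed, so that both orders turned. Mature miR-24 comes from both clusters and was measured by 1 probe, so its signal cannot be divided between them.

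The ratio of ssc-miR-24 was lower than that of each cluster mate. The difference between its log2 ratio and the median of ssc-miR-23a, ssc-miR-23b, ssc-miR-27a and ssc-miR-27b (0.016) was -0.27. It was -0.24 after quantile normalization, -0.27 after loess and -0.27 with an offset of 50. There were no replicate arrays against which this difference could be set.

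MIR181C, which neighbours the cluster of miR-23a, belongs to the miR-181 family, known from the development of lymphocytes. The signal of ssc-miR-181c was 919 in Bama minipigs against 962 in Landrace pigs, a log2 ratio of -0.065 and below 0 under every scaling tried.

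The star strands were dim on both arrays, and no ratio is given for them, as the deposited table holds no background value with which to judge signals below 100. The study's own detection calls were not used here, and the minimum of 100 stands in their place. The signal of ssc-miR-24* was 1.82 in Bama minipigs against 4.70 in Landrace pigs, and that of ssc-miR-27b* was 22.3 and 6.95. An added probe, Y-79, is listed by the study as miR-23a* and was not part of the set by name. It gave 21.3 and 9.31. All of them lay among the 170 probes below 100 on both arrays, where small signals differ between the arrays in either direction.

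The sequences of these strands are given to show that their seeds are not those of the main strands, again with bases 2 to 8 in capitals and from the study's probe lists.
ssc-miR-24*: gUGCCUACugagcugaaacacagu
ssc-miR-27b*: aGAGCUUAgcugauuggugaaca
Y-79: gGGGUUCCuggggaugggauuu

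The precursor listed for Y-79 has 79 bases and holds Y-79 from base 12 to 33 and the sequence of ssc-miR-23a from base 48 to 68. The sequence of ssc-miR-23b was not found in it. Y-79 and ssc-miR-23a thus lie on opposite sides of the listed hairpin.

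Hairpins with 1 dim arm were also seen outside the set. Of 46 other porcine hairpins with more than 1 strand on the array, 12 had both arms at 100 or more in both breeds, 21 had 1 such arm and 13 had neither. The count of 12 depends on the minimum and was 17 at a minimum of 50, 7 at 200 and 2 at 500. Among the 17 of them whose brighter arm reached 1000 on both arrays, 8 had both arms at 100 or more, as against 0 of the 2 such hairpins of the set. An example with both arms is ssc-miR-30e, with 5782 and 5469 for its 5p strand and 553 and 298 for its 3p strand in Bama minipigs and Landrace pigs. These are counts of signals past a minimum, and the strands of a hairpin are read by different probes.

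The seed letters of the members also occur in other probes of the array, where they are printed in capitals wherever they lie. No probe outside the set held one of these seeds at bases 2 to 8.
ssc-miR-128: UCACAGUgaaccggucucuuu
ssc-miR-151-5p: ucgaggagcUCACAGUcuagu
Y-84: ggggggcaggaggGGCUCAGgg
ssc-miR-708-5p: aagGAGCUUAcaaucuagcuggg

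The letters of the miR-27 seed start at base 1 of ssc-miR-128, a miRNA abundant in brain, so that its own seed is shifted by 1 base from that of miR-27. Its signal was 5384 in Bama minipigs against 5602 in Landrace pigs, a log2 ratio of -0.057. In ssc-miR-151-5p the same letters start at base 10, and the signals were 7406 and 7946 (log2 ratio -0.10). Both were slightly higher in Landrace pigs under every scaling tried, the reverse of miR-27a and miR-27b, but the miR-27 direction depends on the scaling as given above.

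The letters of the miR-24 seed start at base 14 of Y-84, listed as miR-328. Its signal was 6655 in Bama minipigs against 3411 in Landrace pigs, a log2 ratio of 0.96, opposite in direction to ssc-miR-24 and just short of 2-fold. The letters of the ssc-miR-27b* seed start at base 4 of ssc-miR-708-5p, with 1263 and 1548 (log2 ratio -0.29). The seeds of ssc-miR-24* and Y-79 were found in no other probe. A shared run of letters away from bases 2 to 8 is a description of the sequence only.

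The probes outside the set with the most similar pair of signals were taken by their distance in log2 signal over the 2 arrays. For ssc-miR-23a it was ssc-miR-30c (10186 and 9537, distance 0.081), for ssc-miR-23b ssc-miR-191 (10472 and 10794, distance 0.078) and for ssc-miR-27a ssc-miR-222 (4902 and 4807, distance 0.062). For both ssc-miR-24 and ssc-miR-27b it was ssc-miR-129a (6157 and 6408), at 0.15 and 0.071. With 2 arrays this measure says only that the signals were alike.

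Other miRNA families gave a scale for the spread within the set, which was 0.32 between the lowest and the highest log2 ratio. In the miR-30 family 7 of 8 probes were at 100 or more on both arrays, with a median of 0.14 and a range from -0.10 to 0.89, and 0 past 2-fold. Its median was above 0 except after scaling to the 75th percentile (-0.051). The brightest of them was ssc-miR-30b-5p (11402 and 10369.8, log2 ratio 0.14) and the largest ratio was that of ssc-miR-30e-3p. That strand and ssc-miR-30a-3p (168 and 144) were far dimmer than the main strands of the set. Ratios of the other miR-30 probes at 100 or more ran from -0.099 (ssc-miR-30d) to 0.19 (ssc-miR-30a-5p), a slightly narrower span than in the set.

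In the cluster of miR-17 and miR-92a and its paralogs, known for promoting cell division, 6 of 10 probes reached 100 on both arrays. Their median log2 ratio was 0.037, and it fell below 0 under every scaling other than the offset of 50 (0.036), from -0.013 with the summed signal to -0.15 with the 75th percentile. They ranged from -0.25 to 1.34, with 1 past 2-fold, ssc-miR-19b (1881 and 743). The brightest, ssc-miR-92a, gave 7033 and 6911. The main strands of the set thus spread less than these cluster members, though no test of that difference was made.

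The miR-181 family, with 4 of 5 probes at 100 or more, had a median of -0.044 and a range from -0.23 to 0.18, with 0 past 2-fold. Both its brightest signal and its largest ratio belonged to ssc-miR-181a, with 4224 in Bama minipigs against 4967 in Landrace pigs. The median was below 0 under every scaling tried. The highest and lowest ratios were 0.42 apart, against 0.32 in the set.

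A list of miRNAs linked to blood vessels and to low oxygen was examined because the miR-23 and miR-27 clusters are expressed in endothelium. In it 8 of 10 probes reached 100 on both arrays, with a median of -0.031, a range from -0.72 to 0.51 and 0 past 2-fold. These counts leave out ssc-miR-296, which was below 100 in Bama minipigs only (49.7, against 169.6 in Landrace pigs), and ssc-miR-503, which was below 100 on both arrays. The endothelial miRNA ssc-miR-126 was the brightest, with 6981 in Bama minipigs against 8857 in Landrace pigs (log2 ratio -0.34), and its star strand had the largest ratio in size, with 207 and 341 (-0.72). In the other direction, ssc-miR-221 gave 5432 and 3810 (log2 ratio 0.51), and 3 of the 8 were above 0, or 1 of the 8 under each other scaling except the offset. The miR-126 strands were lower and ssc-miR-221 higher in Bama minipigs under every scaling tried, and the median of the list was below 0 under each, whereas the main strands of the set shared a direction only after median or 75th percentile scaling.

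**Figure D2:**
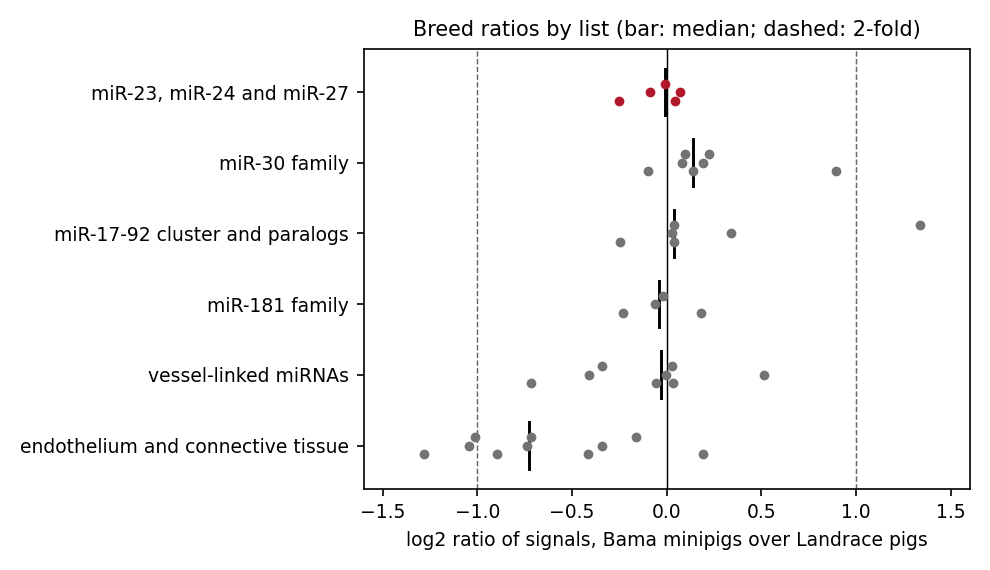
Log2 ratio of signals, Bama minipigs over Landrace pigs (x axis), for each probe with 100 or more on both arrays, by list (y axis), with the list median as a bar and 2-fold as dashed lines. The 5 main strands of miR-23, miR-24 and miR-27 lie between -0.25 and 0.069, while the endothelium and connective tissue list has its median at -0.73 and 9 of its 10 probes below 0 (10 of 10 after quantile normalization).

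Markers of other cells in the tissue were read from the same arrays. In the list for endothelium and connective tissue, 10 of 11 probes reached 100 on both arrays, and 9 of the 10 had a lower signal in Bama minipigs, or 10 of 10 after quantile normalization. The exception was ssc-miR-214 (858 and 752, log2 ratio 0.19), which was below 0 only after quantile normalization (-0.059). The bright ssc-miR-145 (5602 and 6266) was lower by little, with a log2 ratio of -0.16. Over all 169 probes with 100 or more on both arrays, 52.1% were lower in Bama minipigs and 2.37% were 2-fold lower. The 10 are not separate measurements, as 5 of them are strands of the miR-199 family with near-identical sequences among them and 2 are the arms of miR-126. Their median log2 ratio was -0.73. The signals of the list summed to 18990.0 in Bama minipigs against 26193 in Landrace pigs, with ssc-miR-126 the brightest, and 3 were past 2-fold, the largest being ssc-miR-199b (292 and 712, log2 ratio -1.28). The only marker below 100 on both arrays was ssc-miR-143-5p, at 2.83 and 7.30. Among the members, ssc-miR-23a, ssc-miR-23b and ssc-miR-24 had ratios on the same side, with -0.0090, -0.088 and -0.25, while ssc-miR-27a and ssc-miR-27b lay on the other. This split held without further scaling and with the offset, whereas all 5 lay below 0 after median or 75th percentile scaling, 4 after scaling to the summed signal or loess, and 3 after quantile normalization, with ssc-miR-23a at 0. The part of these markers in those ratios was not tested.

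The blood list had 2 of 5 probes at 100 or more. The red cell miRNA ssc-miR-451 gave 5286 in Bama minipigs against 5841 in Landrace pigs (log2 ratio -0.14), and ssc-miR-486 gave 208 and 182, the largest ratio of the list at 0.19. The list summed to 5497 and 6026. The white cell markers ssc-miR-142-3p (0.489 and 1.46), ssc-miR-142-5p (1.84 and 1.19) and ssc-miR-155 (0.417 and 0.513) were near 0 on both arrays. The median log2 ratio was 0.024 over 2 probes, and below 0 under each other scaling except the offset.

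The striated muscle list had 2 of 8 probes at 100 or more on both arrays and 3 below 100 on both, with sums of 1538 in Bama minipigs against 667 in Landrace pigs. Its brightest and most changed probe with a ratio was ssc-miR-206, with 117 and 278 (log2 ratio -1.25, or -0.97 with the offset), and the median was -0.69. The higher sum in Bama minipigs came from probes below 100 in Landrace pigs, such as ssc-miR-133b (439 and 80.6) and ssc-miR-1 (426 and 25.1), while the heart marker ssc-miR-208b gave 0.829 and 4.29.

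The list for brain and posterior lobe had 5 of 7 probes at 100 or more, with sums of 33907 and 32515. Its brightest probe was Y-1 (listed as miR-132), with 17403 and 16664, and its largest ratio was that of ssc-miR-129b, with 1204 and 877 (0.46). The median log2 ratio was 0.063, but below 0 when scaled to the median (-0.050) or the 75th percentile (-0.13). It was 0 after quantile normalization, where Y-1 and Y-74 held equal positions on both arrays. The neuronal marker ssc-miR-124a gave 66.3 and 27.03, and ssc-miR-9-1 gave 11.5 and 6.26. The part of any of these lists in the ratios of miR-23, miR-24 and miR-27 was not tested.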

How the data were processed

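Each deposited value is a linear signal intensity, 1 per probe and array, from a custom microfluidic chip stained with Cy5. The study's methods name background subtraction and LOWESS normalization as the processing steps. Each probe had repeat spots, and 1 value per probe and array was deposited. How signals below background stayed above 0 is not stated in the sources used here. All columns were used. The other assays of the study were not analysed here.

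Log2 ratios of Bama minipigs over Landrace pigs were taken from the signals with no further scaling, for probes with 100 or more on both arrays, and 2-fold served as a rule of size. The minimum stands in for the study's detection calls, which were not used. No test was made, with 1 array per breed. Sequences and listed names came from the study's probe lists, and gene neighbours from RefSeq for Sscrofa11.1, by name only, where 6 precursor genes matched.

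The members and lists were chosen with earlier results of these data known. Named were all members, Y-79, every probe holding a member's seed, the nearest probe to each member at 100 or more by Euclidean distance in log2 signal, and in each list the highest mean signal and the largest ratio in size among probes at 100 or more. Other list markers (among them ssc-miR-221 and ssc-miR-296), ssc-miR-30e, ssc-miR-181c and the named reference pairs were added to these after their values were seen. The lists were the miR-30 family, the cluster of miR-17 and miR-92a and its paralogs, the miR-181 family, vessel-linked miRNAs, endocrine anterior pituitary, striated muscle, blood cells, endothelium and connective tissue, brain and posterior lobe, and liver. ssc-miR-126 and ssc-miR-126* are in both the vessel-linked and the endothelium list.

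Alternatives were median scaling over probes at the minimum, scaling to the 75th percentile or the summed signal, quantile normalization, cyclic loess with 3 iterations, an offset of 50, signal minimums of 50, 200 and 500, ssc- probes alone, and 1 or 3 base differences between paired probes. The code for the scalings and the 2-fold rule was tested on simulated data, which says nothing of the error of the real arrays. Python 3.11.15, numpy 2.4.6, pandas 2.3.3, matplotlib 3.10.9, R 4.3.3 and limma 3.58.1 were used.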

Additional observations from a re-analysis of the deposited data

How the results depend on the processing

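Of 30 member ratios recomputed under other scalings or the offset, 24 moved by less than 0.17 on the log2 scale, which is the limit set by the spread of ratios among the brighter probes, and 6 moved by more: all 5 main strands after scaling to the 75th percentile, and ssc-miR-27a after quantile normalization. The count of members past 2-fold was 0 under every setting, and 5 members stayed at or above signal minimums of 50, 200 and 500. The median log2 ratio of the members moved to -0.20 after scaling to the 75th percentile. The difference between ssc-miR-27a and ssc-miR-27b moved to -0.24 after quantile normalization, while that between ssc-miR-23a and ssc-miR-23b and that between ssc-miR-24 and its cluster mates kept their directions. Over all probes, those 2-fold higher in Bama minipigs went from 17 to 10 at a signal minimum of 500 and to 9 with ssc- probes alone. Those 2-fold lower went from 4 to 7 after median scaling, 8 after scaling to the 75th percentile, 7 after quantile normalization, 2 with the offset of 50 and 2 at a minimum of 500. Hairpins with both arms at the minimum went from 12 to 7 at a minimum of 200 and to 2 at 500, where fewer probes qualify. Median scaling and scaling to the 75th percentile each move every ratio down by a fixed amount. An offset shrinks every ratio, and ssc- probes alone or a higher minimum leave fewer probes to count. The cause of the changes after quantile normalization was not tested. The median difference of near-identical pairs was 0.13 over 10 pairs with at most 1 base difference and 0.26 over 43 pairs with at most 3. No paired analysis was possible because there is 1 array per breed, and leaving out a replicate was not possible for the same reason. Signal over background could not be judged from the deposited values.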
